A study of Oryza sativa with 2 samples.

Results

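The tonoplast aquaporins, or TIPs, are described here in RNA of rice root hairs from samples titled "07g39940 over" through 5 loci: TIP1;1 (Os03g0146100), TIP1;2 (Os01g0975900), TIP2;1 (Os02g0658100), TIP2;2 (Os06g0336200) and TIP4;1 (Os05g0231700), on chromosomes 3, 1, 2, 6 and 5 in that order. They were chosen by name, as every non-control spot whose systematic name begins with one of these locus identifiers. This gave 20 spots for the 5 loci, out of 43144 non-control spots and 23783 rice loci on the array. Their signals lay far apart. The brightest locus ranked 6th among 19983 detected loci in both samples, while 20.5% of them lay below the dimmest in sample 2 and 24.8% in sample 1. The rank of the dim members depends on which probes count as detected: with no filter on dim probes, 35.7% of loci lay below the dimmest as a mean of both samples, against 22.6% with it. None of the 5 loci differed by 2-fold between the samples.

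Aquaporins are membrane channels that let water and some small neutral solutes pass. TIPs sit in the tonoplast, the membrane around the vacuole, where they let water cross quickly between cytosol and vacuole. A root hair is a tubular outgrowth of a root epidermal cell that takes up water and nutrients, and most of its volume is vacuole once it has grown. In Arabidopsis, TIP1 proteins are water channels of vegetative vacuoles, and TIP2 proteins also pass ammonia.

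The series holds 1 group, whose titles read "07g39940 over" and a replicate number, 1 or 2, called sample 1 and sample 2 (n = 2). The labels give the cultivar as Don-gin and an age of 3 days after germination for both, the seeds stood on MSO medium for 3 days, and the hairs were rubbed off roots frozen in liquid nitrogen. They say neither what "over" stands for nor whether the samples are separate lines, plant batches or repeats of 1 preparation. Both samples thus share 1 group name, and no untreated or wild-type group stands beside them. Each RNA was labelled with the dye Cy3 and hybridised to 1 one-colour Agilent array, on the same slide and in the same scan.

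The share of non-control spots called well above background by the scanner software was 85.0% for sample 2 and 83.2% for sample 1, and none was saturated. The 24 probes of random or artificial sequence, which match no rice gene by design, reached at most 48.3 units in sample 2 and 44.3 in sample 1. The software still called 6 of these 24 probes well above background on both arrays, in most of their spots. The marker genes that follow were chosen with earlier results of these data known, so their levels are a description and no independent check. Of 4 known genes of root hair growth 4 were detected, where 84% of all loci were. These 4 were bright, from 13972 to 128816 units in sample 2 and from 14139 to 148676 in sample 1. Inner root tissues were read through 6 marker genes of stele and endodermis, whose summed signal was 217 units in sample 2 and 279 in sample 1. Of these, CASP1 (91.4 units in sample 2, 138 in sample 1) and a PHO1 gene (110 and 132) passed background in both samples, SHR1 in sample 2 alone, and the other 3 in neither. The 5 seed storage markers summed to 92.4 units in sample 2 and 4923 in sample 1, and the 5 photosynthesis markers to 433 and 63.3. These lists moved between the samples, and their part in the TIP differences was not tested.

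All 5 TIP loci were detected in both samples, by every one of their 20 probes. Detection alone sets them little apart, since 84% of all loci passed background on both arrays by at least 1 probe. A probe that passes background but reads below the highest random or artificial probe cannot be told apart by signal from probes that match no rice gene, and 2 of the 20 TIP probes read so in at least 1 sample. Signals are processed Cy3 intensities in arbitrary units, a locus value is the geometric mean over its probes, and ranks are among the 19983 loci detected in both samples. A probe's brightness depends on its own sequence as well as on the transcript, so a rank or a contrast between loci describes signal, not transcript number. The array gives no measure per transcript length.

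TIP1;1, a water channel of the large vacuole, was the brightest member. Its locus signal was 359199 units in sample 2 and 366538 in sample 1, and it ranked 6th in both (99.97th percentile). Its 6 probes read 259482, 490792, 453844, 461547, 350660 and 229615 units in sample 2. In sample 1 the same probes read 268957, 514406, 451875, 469325, 346471 and 238542 units. Of these, 3 probes ranked 2nd, 3rd and 5th among all 35955 probes of rice loci in both samples. The brightest unprocessed spot median among them reached 57.9% of the scanner's saturation value in sample 2 and 59.3% in sample 1. Only 5 loci lay above TIP1;1 in both samples: Os12g0571100, Os10g0546100, Os06g0152100, Os02g0280200 and Os05g0247100.

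The probes of this locus fell into levels that followed the transcript model named in the file. The 2 probes assigned to model 01 had a mean of 244092 units in sample 2 and 253293 in sample 1, and the 2 assigned to model 02 had 457679 and 460518. The single probe of model 05 was the highest (490792 and 514406) and that of model 04 lay between (350660 and 346471). The highest probe exceeded the lowest 2.14-fold in sample 2 and 2.16-fold in sample 1, and these processed signals kept the order of the models in both samples. Models 05 and 02 had no settled order, since in the authors' deposited log2 table a model 02 probe was the highest in sample 2 (18.81, against 18.78 for model 05) and the model 05 probe in sample 1 (18.81, against 18.78). All are annotated to coding sequence plus 3′ untranslated region, and whether probe sequence or transcript form sets these levels was not tested.

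TIP1;2, the paralog in the same subfamily, gave the dimmest signal of the 5 loci. The locus stood at 68.4 units in sample 2 and 81.6 in sample 1. Its 2 probes for model 01 read 140.2 and 145 units in sample 2, and 168 and 179.8 in sample 1. The probe for model 02 read 15.7 units in sample 2 and 18.0 in sample 1, which is under the highest random or artificial probe of each sample. The locus mean thus joins 2 probes above that level with 1 below it, and the model 01 probes alone averaged 143 units in sample 2 and 174 in sample 1. In the authors' deposited log2 table the same order held, with the model 01 probes at 7.39 and 7.47 in sample 2 and at 7.71 and 7.89 in sample 1, and the model 02 probe at 5.44 and 5.64.

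The contrast between these paralogs, called the TIP1 contrast, was the wider of those within a subfamily. The first exceeded the second by 12.36 on the log2 scale in sample 2 and by 12.13 in sample 1 (mean 12.25 ± 0.16 SD, n = 2). Without the probe under the control level, a choice made after seeing the data, these values were 11.30 in sample 2 and 11.04 in sample 1 (mean 11.17 ± 0.18 SD), so the size of the contrast depends on that probe. In both samples every probe of the bright paralog was brighter than every probe of the dim one, in 18 of 18 pairs. The closest pair was still 1580-fold apart in sample 2 and 1326-fold apart in sample 1. The separation of the paralogs was therefore far wider than the disagreement between probes or samples.

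**Figure D1:**
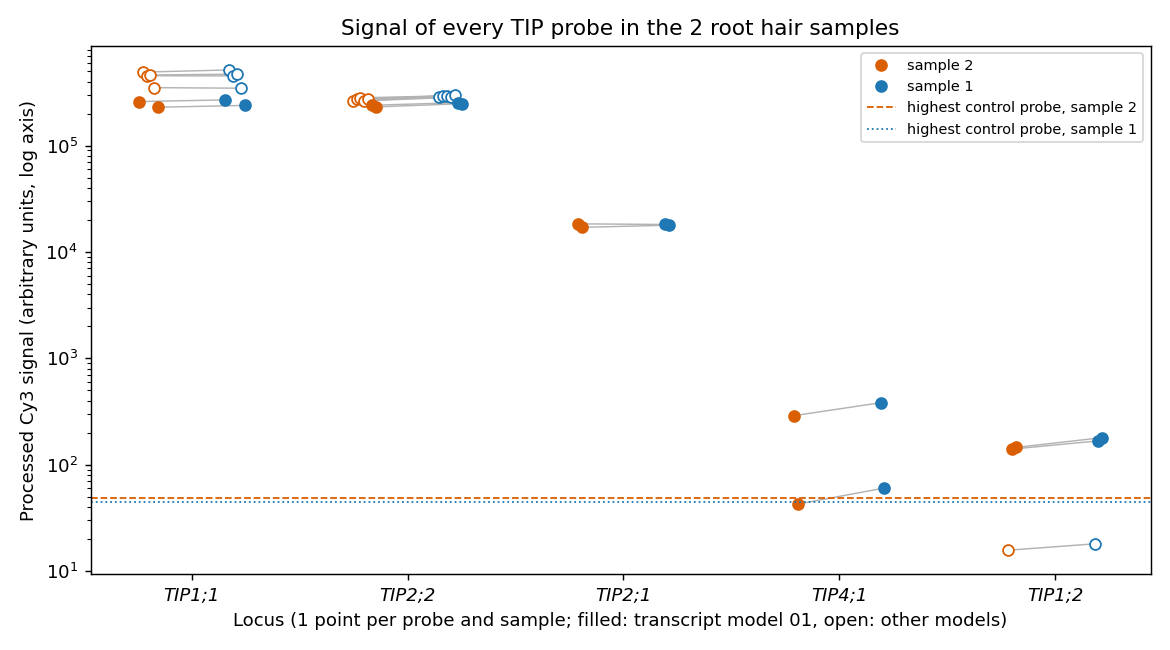
Processed Cy3 signal (arbitrary units, log axis) of each of the 20 probes of the 5 TIP loci, with sample 2 left and sample 1 right within each locus and a grey line joining the same probe. Filled points are probes of transcript model 01 and open points those of other models, and horizontal lines mark the highest random or artificial control probe (48.3 in sample 2, 44.3 in sample 1). The 2 brightest loci lie above every other probe shown, the third lies between 17044 and 18386 units, and the 2 dimmest loci have 1 probe each under the control line in sample 2.

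TIP2;2, of the subfamily that in Arabidopsis also carries ammonia, was the second brightest. Its locus signal was 259841 units in sample 2 (rank 24) and 278652 in sample 1 (rank 21). The 7 probes ranged from 231347 to 281428 units in sample 2, with the median at 263884. They ranged from 247808 to 296299 units in sample 1, with the median at 286520. The samples' ranges overlapped, yet each probe taken alone was lower in sample 2. As in the brightest locus, the 2 probes of model 01 were the dimmest, with a mean of 235442 units in sample 2 and 250418 in sample 1, below the 5 probes of model 02 (270294 and 290818). Its probes differed among themselves by an SD of 0.10 (log2) in sample 2 and 0.11 in sample 1, less than the probes of the brightest locus did (0.47 and 0.46).

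TIP2;1, the other member of that subfamily, was bright but not among the top loci. The locus signal was 17702 units in sample 2 (rank 1384) and 17995 in sample 1 (rank 1366). Its 2 probes, both of model 01, read 18386 and 17044 units in sample 2, against 18144 and 17849 in sample 1. Its brighter paralog exceeded it 14.7-fold in sample 2 and 15.5-fold in sample 1, a mean TIP2 contrast of 3.91 ± 0.05 on the log2 scale (SD, n = 2). By processed signal every probe of that paralog was the brighter in both samples (14 of 14 pairs), by at least 12.6-fold in sample 2 and 13.7-fold in sample 1. In the authors' deposited log2 table the order of the 2 TIP2;1 probes was reversed. There they lay further apart, at 13.97 and 14.31 in sample 2 and at 13.99 and 14.38 in sample 1. The lowest TIP2;2 probe still read above both, at 17.69 in sample 2 and 17.765 in sample 1. Each of the TIP1 and TIP2 subfamilies thus had 1 locus near the top of the array and a dimmer partner.

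TIP4;1 was dim. Its locus signal was 111 units in sample 2 (rank 14622) and 152 in sample 1 (rank 13499). One of its 2 probes read 289 units in sample 2 and 383 in sample 1, and the other 42.7 and 60.4. The probes disagreed on the level by 6.78-fold in sample 2 and 6.33-fold in sample 1, although both belong to model 01. In sample 2 the dimmer probe lay under the highest random or artificial probe, and in sample 1 it lay above it.

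In order of signal the loci ran TIP1;1, TIP2;2, TIP2;1, TIP4;1 and TIP1;2 in both samples, but not all neighbours were separated by their probes. The 2 brightest loci overlapped: the first had the brighter probe in 30 of 42 pairs in each sample, and the locus signals differed by 1.38-fold in sample 2 and 1.32-fold in sample 1. The 2 dimmest loci overlapped as well, with the TIP4 probe brighter in 4 of 6 pairs in each sample and locus signals 1.62-fold apart in sample 2 and 1.86-fold apart in sample 1. That overlap involved a TIP4 probe under the control level in sample 2, and without probes below that level in either sample the TIP4 locus read 2.03-fold higher in sample 2 and 2.20-fold higher in sample 1. The gap from the third locus to the fourth was wider than the probe spread, at 159-fold in sample 2 and 118-fold in sample 1 and in the same direction in 4 of 4 pairs. By the brighter TIP4 probe alone it was 61.2-fold in sample 2 and 47.0-fold in sample 1. The histograms of locus signal therefore show 3 members in the bright tail and the other two among the dim loci.

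**Figure D2:**
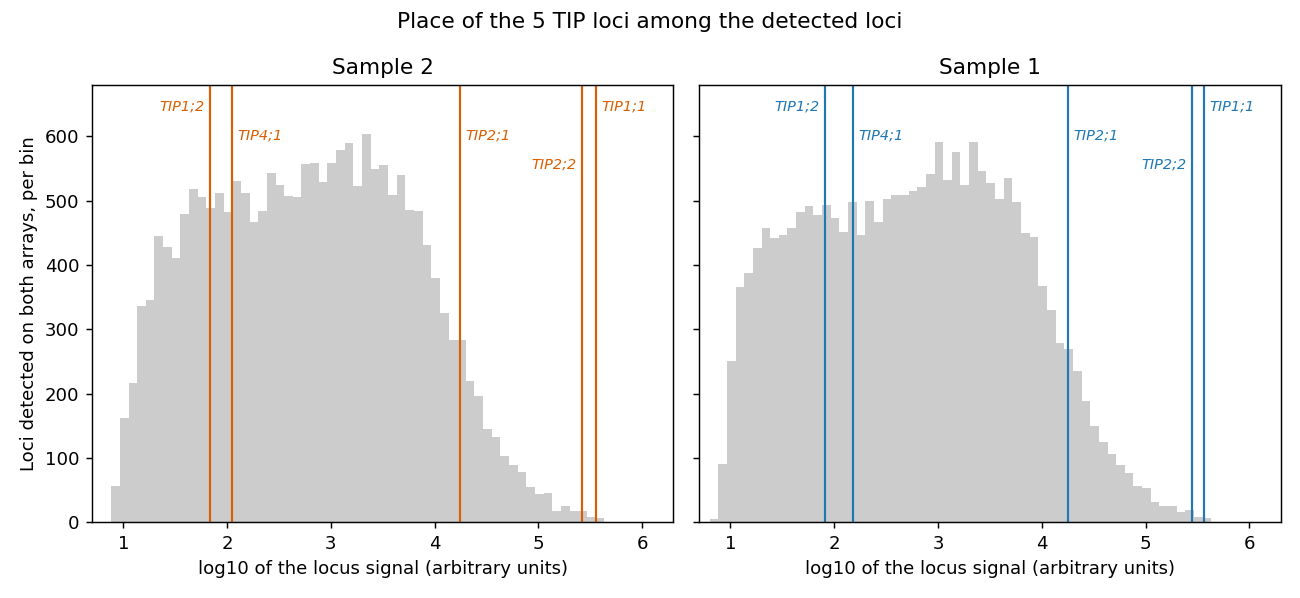
Number of loci detected in both samples by log10 locus signal (arbitrary units), with sample 2 left and sample 1 right, and the 5 TIP loci as vertical lines. From the right lie the loci at 359199 and 259841 units in sample 2 (366538 and 278652 in sample 1), then the one at 17702 units (17995 in sample 1), with the 2 dim members at 111 and 68.4 units (152 and 81.6 in sample 1) left of the peak.

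A comparison of the 2 samples shows the only spread that the design offers. With 1 group there is no test and no p-value. Differences are sample 2 minus sample 1 on the log2 scale after each array was scaled to its 75th percentile. All 5 TIP loci were lower in sample 2, where 42.8% of all detected loci were lower by any amount. The median over the 5 loci was -0.13, against 0.03 over all 19983 detected loci. Of the 20 probes, 20 were lower in sample 2 after scaling and 17 before it. Probes of a locus share 1 RNA per sample, so these are not 20 independent observations. No such share is given here for all probes of the array. Most of the 20 belong to loci in the brightest of 10 classes of signal, where 69.4% of loci were lower in sample 2. The rest belong to loci of a dim class, where 27.7% were lower. None of the 5 loci was 2-fold apart, as 2.31% of detected loci were (1.83% higher in sample 2 and 0.475% lower). By the authors' deposited log2 values the brightest locus differed by 0.0067 and the other 4 were lower in sample 2.

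The dim members stood furthest apart. TIP4;1 differed by -0.48, that is 1.39-fold lower in sample 2, with -0.43 at one probe and -0.53 at the other. Although these probes disagreed on the level more than 6-fold, they gave nearly the same difference. The scanner software's own error for such a difference, from its error per spot, was 0.20 for the first probe and 0.22 for the second. TIP1;2 differed by -0.28 (1.21-fold lower in sample 2), with -0.22, -0.28 and -0.33 at its 3 probes and software errors of 0.33, 0.21 and 0.21 in that order. A locus's probes share 1 RNA per sample, so their closeness (SD 0.07 and 0.05 for these loci) measures reading error, not spread between plants.

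Loci of like signal give a measure of scatter for these dim members. Both belong to the third of 10 equal classes of mean signal, in which 1998 loci had a median difference of 0.13 with an SD of 0.57, and 27.7% were lower in sample 2. The 5th and 95th percentiles were -0.29 and 0.87. The TIP1 locus lay just inside that range (5.16th percentile of the class) and the TIP4 locus below it (1.95th percentile). Measured from the class median, the TIP1 locus lay at -0.41, within the SD of the class, and the TIP4 locus at -0.61, beyond it.

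The bright members differed little. TIP2;2 differed by -0.13 (1.09-fold lower in sample 2), from -0.16 to -0.09 over its 7 probes. TIP1;1 differed by -0.05, from -0.09 to -0.01 over its 6 probes, and TIP2;1 by -0.05, with -0.01 and -0.09 at its 2 probes. The software put the error of every bright TIP spot at 10%, which makes 0.20 for a difference at a single probe. That value is larger than each of these differences, but it is identical at every bright probe and is no measured scatter. The SD of the difference over probes was 0.02 for TIP2;2, 0.03 for TIP1;1 and 0.06 for TIP2;1. Among the 1999 loci of the brightest class, 69.4% were lower in sample 2, with a median of -0.04, an SD of 0.10 and 5th and 95th percentiles of -0.19 and 0.14. In the order just given the 3 loci lay at the 14.9th, 44.6th and 46.9th percentile of that class. Their direction is that of most loci as bright as they are.

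**Figure D3:**
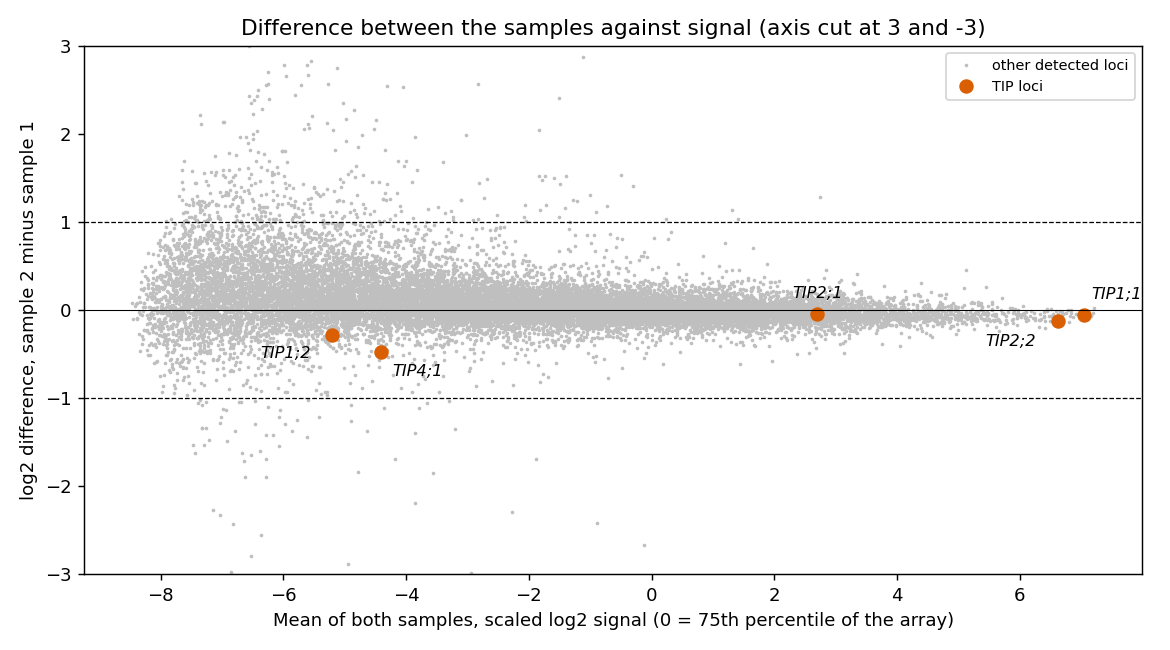
Log2 difference (sample 2 minus sample 1) of each locus detected in both samples against the mean scaled log2 signal, where 0 on the x axis is the 75th percentile of each array, with the 5 TIP loci as orange points, dashed lines at 2-fold and 38 loci beyond the axis. Scatter is wide at the dim left and narrow at the bright right. The 2 dim members (-0.48 and -0.28) lie in the lower part of the dim loci, at the 1.95th and 5.16th percentile of their signal class. The 3 bright ones (-0.13, -0.05 and -0.05) lie within the band of bright loci.

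The contrasts between paralogs moved between the samples by far less than their own size. The TIP1 contrast was larger in sample 2 by 0.23 and the TIP2 contrast changed by -0.08 (log2, sample 2 minus sample 1). The step from the third locus down to the fourth changed most, by 0.43, or by 0.38 without the TIP4 probe that lay under the control level in sample 2. A shift in an array's scale cannot alter these values, since both loci of a contrast are read on the same array.

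The remaining TIP genes of rice were dim or not analysed. Of 5 such loci 4 had probes, and all 4 were detected in both samples, but only TIP3;2 (70.9 units in sample 2, 53.4 in sample 1) exceeded the highest random or artificial probe. TIP3 proteins belong to the protein storage vacuoles of seeds. TIP3;1 read 6.08 and 8.92 units at its 2 probes in sample 2, against 41.6 and 42.3 in sample 1. The probe well above background on both arrays was 4.83-fold lower in sample 2. The other was not well above background in sample 2. Set there to the lowest signal called well above background (7.14 units), it was 5.93-fold lower. Both probes read under the highest random or artificial probe in both samples. Neither the presence of a TIP3;1 signal nor the size of these folds is therefore certain. TIP3;1 was low in the sample in which the seed storage markers were low, while the other TIP3 locus differed by 0.38 in the opposite direction. A link to those markers was not tested. TIP5;1, a pollen gene in Arabidopsis, read 9.38 units in sample 2 and 16.7 in sample 1, and Os01g0232100, listed as a TIP4 locus, 20.5 and 20.2. The fifth, Os01g0232000, was not analysed here.

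The plasma membrane aquaporins, or PIPs, which pass water across the outer cell membrane, form another family on the array. Of 11 loci 9 were detected in both samples, from PIP2;3 (63.0 units in sample 2, 59.0 in sample 1) to PIP2;1 (19390 and 17879). The 2 brightest TIP loci therefore read above every PIP locus, and the third read close to the brightest of them. Of the 9 PIP loci 8 were higher in sample 2 and 1 lower. Over all detected loci 42.8% were lower, a share that ran from 27.1% to 69.4% over the 10 classes of signal. The PIP loci had a median difference of 0.13 and a range from -0.05 to 0.50. Among them 0 were 2-fold apart, against 2.31% of all detected loci. Scaling both arrays to the median in place of the 75th percentile made the PIP count 5 higher and 4 lower (median 0.04). It left all 5 TIP loci lower in sample 2 (median -0.22). That scaling moved every locus down by the same amount, so the TIP loci could only stay lower. The median over all detected loci fell from 0.03 to -0.06. The difference between the families was not tested.

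The NIP and SIP aquaporins, which include a silicon channel of the root, were detected at 6 of 6 loci, from NIP1;1 (72.4 units in sample 2, 29.5 in sample 1) to SIP1;1 (8683 and 9179). Of these 4 were lower in sample 2 and 2 higher (median -0.08), where 42.8% of all detected loci were lower. NIP1;1, the dimmest of the 6, was 2.41-fold higher in sample 2, from a signal in sample 1 under the highest control probe. Vacuolar pyrophosphatases pump protons across the same tonoplast, and 3 of 3 listed loci were detected, from Os02g0802500 (138 units in sample 2, 48.0 in sample 1) to Os06g0644200 (17686 and 19190). The brightest differed by -0.14, and Os06g0178900 by 0.17. The dimmest, Os02g0802500, differed by 1.49 on average, but its probes ran from 0.12 to 2.28.

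**Figure D4:**
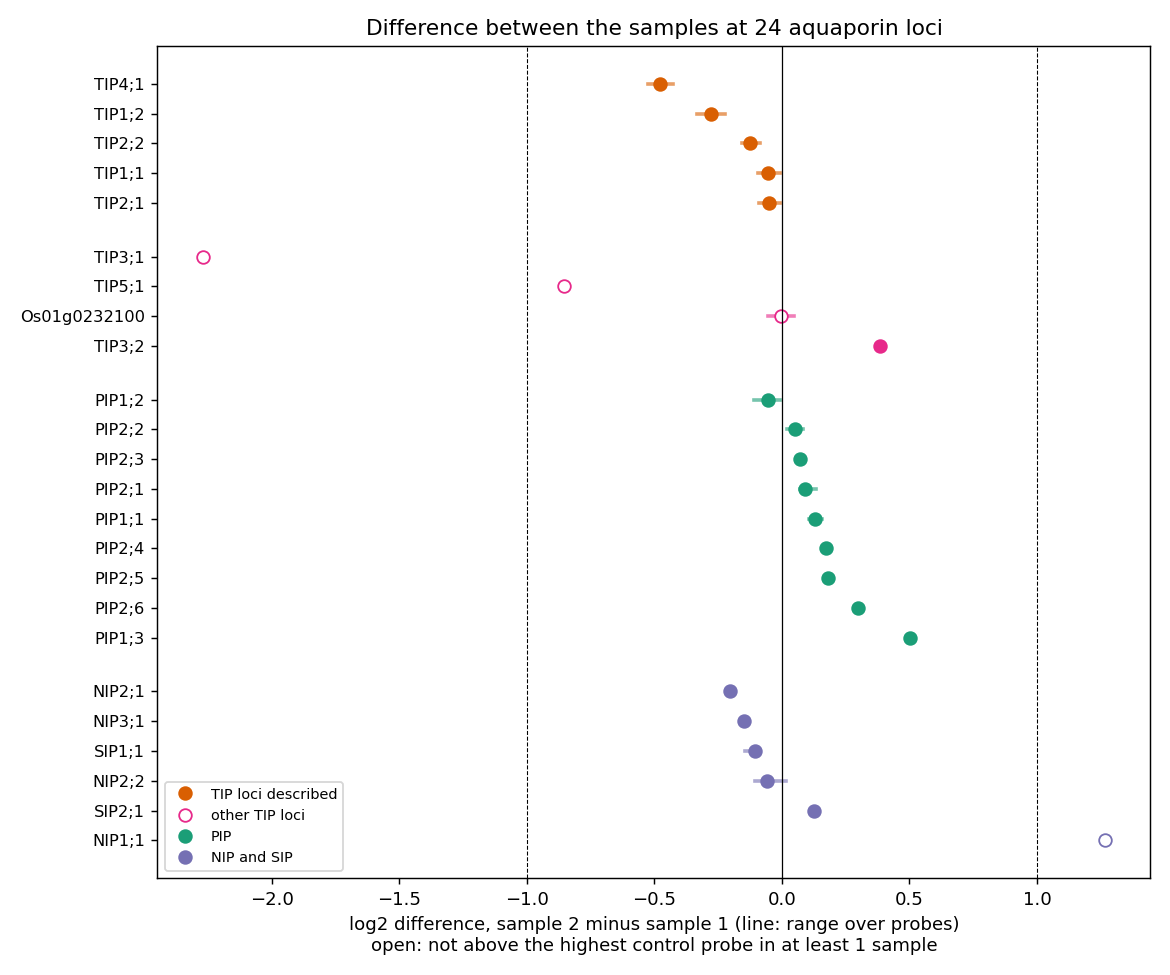
Log2 difference between the samples (sample 2 minus sample 1, x axis) for 24 aquaporin loci detected in both, grouped as the 5 TIP loci described, the other TIP loci, PIP, and NIP and SIP. Points are locus means, lines the range over probes, dashed lines 2-fold, and open points loci not above the highest control probe in at least 1 sample. The 5 TIP loci lie between -0.48 and -0.05, the lowest other TIP locus at -2.27, and 8 of 9 PIP loci right of 0.

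With 2 samples there is no pattern across conditions to match, and likeness to a member was taken as closeness of both scaled log2 signals (Euclidean distance over the 2 samples). The 3 loci nearest to TIP1;1 were Os05g0247100 (373447 units in sample 2, 370984 in sample 1), Os02g0280200 and Os06g0152100, at distances of 0.06, 0.10 and 0.16. Nearest to TIP2;2 were Os08g0189200, Os12g0567800 and Os12g0163700, at 0.04 to 0.05. For TIP2;1 they were Os03g0181100, Os12g0479900 and Os09g0444200, at 0.0061 to 0.02. For TIP4;1 they were Os01g0234700, Os07g0174900 and Os01g0127700, at 0.03 to 0.08. For TIP1;2 they were Os09g0356200, Os02g0767800 and Os11g0703100, each at 0.03.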

How the data were processed

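RNA of 2 root hair samples was read on one-colour arrays with Agilent's Feature Extraction software, whose version is 11.5.1.1 in the file headers, which also name build IRGSP5, and 9.1 in the submitters' processing notes. The deposited intensity is the processed Cy3 signal: per the file headers the software subtracted a background and detrended each array, and arrays were not normalized to each other. The authors' deposited log2 table follows the log2 median spot signal (r across spots 0.9999 in sample 2, 0.9995 in sample 1), with column medians of 8.19 in both, and no source used here describes its making.

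From 45151 spots, 1417 scanner controls, 590 spots of named control probes and spots with a feature outlier flag were left out. Background outlier flags were not used: they fell on 36.8% of the brightest 1% of spots, against 3.28% of all, and on 5 of the 20 TIP spots, among them 3 of the 6 of TIP1;1. Log2 signals were scaled to the 75th percentile (2770 units in sample 2, 2722 in sample 1). Probes well above background on both arrays were averaged per locus. As the files hold no mean spot signal, the normexp alternative (limma 3.58.1, R 4.3.3, offset 50) used the median. Steps were tested on simulated data with planted differences of 2-fold or more and the same noise at every signal. That does not cover differences as small as those of the TIP loci or the wider scatter of dim loci. Of 30 symbols 26 occurred once in the RefSeq gene table (assembly ASM3414082v1) on the chromosome of their locus, and the other 4 appear by locus. Coordinates are not used here. Members and lists were chosen with earlier results of these data known. All 5 members are named with every probe, with the highest and lowest detected locus of each other aquaporin or pump list and the 3 loci nearest to each member. The number of arrays limits the precision, and the difference between them may be technical.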

Additional observations from a re-analysis of the deposited data

How the results depend on the processing

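The 5 differences between the samples moved by less than the SD of loci of like signal under all 9 alternatives. Their median stayed between -0.22 and -0.06. That SD (0.57 for the dim and 0.10 for the bright loci) exceeds the differences of all members but TIP2;2, so it cannot show that a direction is stable. Removing the filter on dim probes could not move these differences, since all 20 probes passed it. Keeping outlier spots could act only through the scale, since no TIP spot carried a feature outlier flag. TIP4;1 ran from -0.63 (quantile normalization) to -0.29 (normexp), TIP1;2 from -0.45 to -0.18, TIP2;2 from -0.22 to -0.06 and TIP2;1 from -0.14 to -0.01. TIP1;1 ran from -0.15 to 0.0067 and changed direction in the authors' deposited table alone. The median percentile rank of the 5 loci was 93.1, and 93.3 with normexp and with the deposited table, 94.3 without the filter on dim probes, 91.7 by the brightest probe, 93.4 with background outlier flags also left out and 91.6 with only probes above the highest control probe on both arrays, the last 2 being chosen after seeing the data. By single samples it ran from 93.08 to 93.17. In each setting this median was the rank of TIP2;1, the third of the 5 loci, and it describes no other member. The dim loci moved more: TIP1;2 stood at 22.6, and at 35.7 without the filter, 30.7 by the brightest probe and 17.0 with only probes above the control level, and TIP4;1 at 29.6, and at 41.5, 39.6 and 28.8. The contrast TIP1;1 minus TIP1;2 was 12.25, and 11.27 with normexp, 11.47 in the deposited table, 11.60 by the brightest probe, 11.86 with background flags left out and 11.17 with only probes above the control level, and 12.13 to 12.36 by single samples. TIP2;2 minus TIP2;1 was 3.91, and 3.84 in the deposited table and 3.98 by the brightest probe, and 3.88 to 3.95 by single samples. Of all loci 461 were 2-fold apart (79.4% higher in sample 2), and 115 with normexp (63.5%), 145 in the deposited table (61.4%), 139 with only probes above the control level (82.7%) and 1188 without the filter (71.8%); quantile normalization put 63.2% higher. The causes were not tested. No paired analysis was possible because the replicates belong to 1 group. Signals near the control probes limit what can be said of TIP1;2 and TIP4;1.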

Other observations

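The processed signal of the 6 TIP1;1 spots was 0.916 to 1.22 times their unprocessed median signal in sample 2 and 0.918 to 1.23 times in sample 1, with the lowest ratio at the model 04 probe in both. In the authors' deposited log2 table the probes of model 01 were again the dimmest of that locus, at 17.66 and 17.73 in sample 2 and at 17.69 and 17.73 in sample 1. Its other probes lay between 18.60 and 18.81 in sample 2 and between 18.53 and 18.81 in sample 1.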
